A study of Mus musculus with 10 samples.

Results

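The semaphorin signalling genes described here are 10 genes of a mouse expression array. They comprised the ligands Sema3g, Sema3a, Sema3c, Sema3e, Sema4a and Sema4d, the co-receptors Nrp1 and Nrp2, and the receptors Plxna1 and Plxnd1. They were found by the platform's gene symbol and made up 10 of the 19057 genes named on the array. They were carried by 25 probes, of which 16 read above noise on at least 2 arrays, and Sema3e had no such probe. The genes were selected on the intensities of these arrays, with the bilayer difference of Sema3g already known. Their own values are therefore given as a description, without exact p-values. Where a member is said to pass a threshold, that too is description and not a test.

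Transcripts were measured in 2 established mouse lines, each grown alone (monolayer) or with the other (bilayer). 3T3-L1 is a fibroblast line from mouse embryo that can be differentiated into fat-storing adipocytes. It was used here at day 8 after induction with IBMX, dexamethasone and insulin. RAW 264.7 is a macrophage line that the labels trace to ascites. For the bilayer, macrophages had 18 h to attach to a polycarbonate insert with pores of 0.4 µm and then shared medium with the adipocytes beneath them for 24 h, with 25 mL of medium added. There were 3 arrays of adipocytes in monolayer, 3 of adipocytes in bilayer, 2 of macrophages in monolayer and 2 of macrophages in bilayer. The protocol describes pools of 5 dishes. The labels do not say whether the monolayer dishes held an insert or received the same medium, or whether arrays of a group came from separate cultures, so p-values reflect only how far these arrays scatter, and that scatter may be technical.

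Semaphorins are a large family of secreted or membrane-bound ligands first studied as repulsive cues for growing axons. Class 3 semaphorins are secreted and mostly bind a neuropilin, which holds them to a plexin of the A type or to plexin D1, and the plexin passes the signal to small GTPases and the cytoskeleton. Sema3e is an exception that binds plexin D1 directly. Class 4 semaphorins span the membrane and act mainly through B-type plexins, and several of them act between immune cells. Neuropilins also bind vascular endothelial growth factors. In mouse adipose tissue, the family has been studied in macrophage recruitment and in the growth of vessels and nerves.

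The promoters of 4 genes whose probes differed between adipocyte cultures are shown first, each a window of 300 bases around a RefSeq transcript start in build GRCm38.p6. They are the 2 ligand genes that read higher in bilayer and passed the fit's threshold (Sema3g, and Sema4g of the wider family), with a ligand gene (Sema3a) and a receptor gene (Plxnd1) whose bilayer arrays all read lower, chosen after their values were seen. Capitals mark ACGTG and GCGTG on either strand, the core letters of sites bound by hypoxia-inducible factors, a motif chosen with earlier results of these data known. The Sema3g window lies at chr14:31217623-31217922 on the plus strand, that of Sema4g at chr19:44989094-44989393 on the plus strand, that of Sema3a at chr5:13396534-13396833 on the plus strand and that of Plxnd1 at chr6:115994956-115995255 on the minus strand.
Sema3g: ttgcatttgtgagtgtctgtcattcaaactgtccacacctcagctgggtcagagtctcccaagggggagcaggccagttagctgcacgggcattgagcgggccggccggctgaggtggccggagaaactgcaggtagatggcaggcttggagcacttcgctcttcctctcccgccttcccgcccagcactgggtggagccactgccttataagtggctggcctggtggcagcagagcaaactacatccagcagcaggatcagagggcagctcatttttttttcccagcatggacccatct
Sema4g: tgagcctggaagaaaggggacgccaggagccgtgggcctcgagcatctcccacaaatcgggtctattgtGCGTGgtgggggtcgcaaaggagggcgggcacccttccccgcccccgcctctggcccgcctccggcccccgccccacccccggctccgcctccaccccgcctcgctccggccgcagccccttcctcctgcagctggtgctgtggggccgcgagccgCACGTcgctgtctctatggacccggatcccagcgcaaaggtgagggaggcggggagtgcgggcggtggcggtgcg
Sema3a: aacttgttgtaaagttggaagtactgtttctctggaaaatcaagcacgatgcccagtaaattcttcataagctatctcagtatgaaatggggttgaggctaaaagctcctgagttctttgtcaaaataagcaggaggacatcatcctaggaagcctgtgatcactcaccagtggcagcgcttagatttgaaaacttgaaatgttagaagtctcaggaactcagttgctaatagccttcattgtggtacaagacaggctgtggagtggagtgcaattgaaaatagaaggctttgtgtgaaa
Plxnd1: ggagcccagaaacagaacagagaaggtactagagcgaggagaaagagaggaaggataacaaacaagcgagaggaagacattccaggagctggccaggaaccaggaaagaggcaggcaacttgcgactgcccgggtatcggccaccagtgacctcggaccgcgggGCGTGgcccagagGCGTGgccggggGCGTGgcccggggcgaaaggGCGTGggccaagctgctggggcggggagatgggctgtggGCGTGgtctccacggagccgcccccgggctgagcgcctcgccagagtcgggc
The windows of Sema3g and Sema3a held 0 copies of either core. That of Sema4g held 1 ACGTG and 1 GCGTG, and that of Plxnd1 held 5 copies of GCGTG. Of 32851 mouse promoter windows of the same length, 43.8% held at least 1 of the 2 cores and 1.7% held 5 or more. The GC box letters GGGCGG occurred once in the Sema3g window and in 35.7% of all windows. These matches describe letters in a window and not binding.

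Intensities are the deposited linear values, in which background had been subtracted, so values scatter around 0 where a transcript is not seen. A reading above 10.9 units, the 99th percentile of the negative values' sizes, was taken as above noise. Differences are on the log2(intensity + 16) scale, with a standard error (SE), and understate the change of dim probes. Levels of different probes cannot be set against each other. Because each array is a bulk sample, fewer cells of a type and less RNA per cell cannot be told apart.

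Sema3g, a secreted class 3 ligand best known from endothelial cells, read higher in bilayer than in monolayer adipocytes on both of its probes and was at noise in macrophages. On the brighter probe the monolayer adipocyte arrays read 84.2, 57.8 and 69.8 units and the bilayer arrays 302.6, 345.5 and 251.6 units. The lowest bilayer array was thus well above the highest monolayer array. The difference was 1.87 on the log2 scale (SE 0.18). On the second probe the monolayer arrays read 25.1, 13.7 and 22.5 units and the bilayer arrays 124.6, 97.0 and 125.1 units, again without overlap, for a log2 difference of 1.86 (SE 0.23). The 2 probes differed in brightness but gave nearly the same difference. All 4 macrophage arrays lay under the noise bound on both probes, between -1.5 and 5.1 units on the brighter one. Monolayer adipocytes were therefore at least 3.20-fold above monolayer macrophages on the brighter probe and at least 1.34-fold on the second. The order of the groups was bilayer adipocytes, then monolayer adipocytes, then macrophages, whose 2 groups were both at noise and have no order.

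Sema3a, the class 3 ligand known for axon repulsion through Nrp1 and A-type plexins, lay in the opposite direction. Its probe read 52.3, 54.0 and 57.2 units in monolayer adipocytes and 25.1, 24.7 and 36.8 units in bilayer adipocytes. Each bilayer array was below each monolayer array, with a log2 difference of -0.66 (SE 0.23) that did not pass the fit's threshold. In macrophages the probe was at noise, between -2.6 and 0.4 units, so monolayer adipocytes were at least 2.62-fold higher. A second Sema3a probe was under the noise bound on all 10 arrays.

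Sema3c, a class 3 ligand that binds both neuropilins, was close to noise. In monolayer adipocytes it read 9.4, 12.0 and 26.1 units and in bilayer adipocytes -0.1, 8.5 and 5.9 units. The groups did not overlap, but only 2 monolayer arrays were above noise and no bilayer array was. The monolayer mean was 1.15-fold above the noise bound, a value that rests largely on the array at 26.1 units. The difference did not pass the fit's threshold. No macrophage array was above noise. Sema3e, the plexin D1 ligand, had 4 probes, and none exceeded the noise bound on any of the 10 arrays.

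The 2 class 4 ligands were higher in macrophages than in adipocytes and differed little between monolayer and bilayer. Sema4a, a membrane ligand that acts on T cells, read 104.7, 95.7 and 117.6 units in monolayer adipocytes and 92.2, 114.5 and 99.1 units in bilayer adipocytes. In macrophages it read 842.6 and 902.5 units in monolayer and 994.2 and 835.0 units in bilayer. The culture groups overlapped in both lines, while the lines were far apart. The bilayer difference was -0.05 (SE 0.11) in adipocytes and 0.06 (SE 0.13) in macrophages. Between the monolayers, adipocytes were 7.30-fold lower on the log2(intensity + 16) scale.

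Sema4d, a membrane ligand of plexin B1 and of Cd72 on immune cells, was dim in adipocytes, at 26.3, 15.7 and 15.0 units in monolayer and 23.1, 22.6 and 9.9 units in bilayer. Macrophages read 72.5 and 76.0 units in monolayer and 91.5 and 72.5 units in bilayer. All macrophage arrays were above all adipocyte arrays, and the culture groups overlapped in each line. The bilayer difference was -0.03 (SE 0.22) in adipocytes and 0.11 (SE 0.26) in macrophages, and monolayer adipocytes were 2.60-fold below monolayer macrophages.

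**Figure D1:**
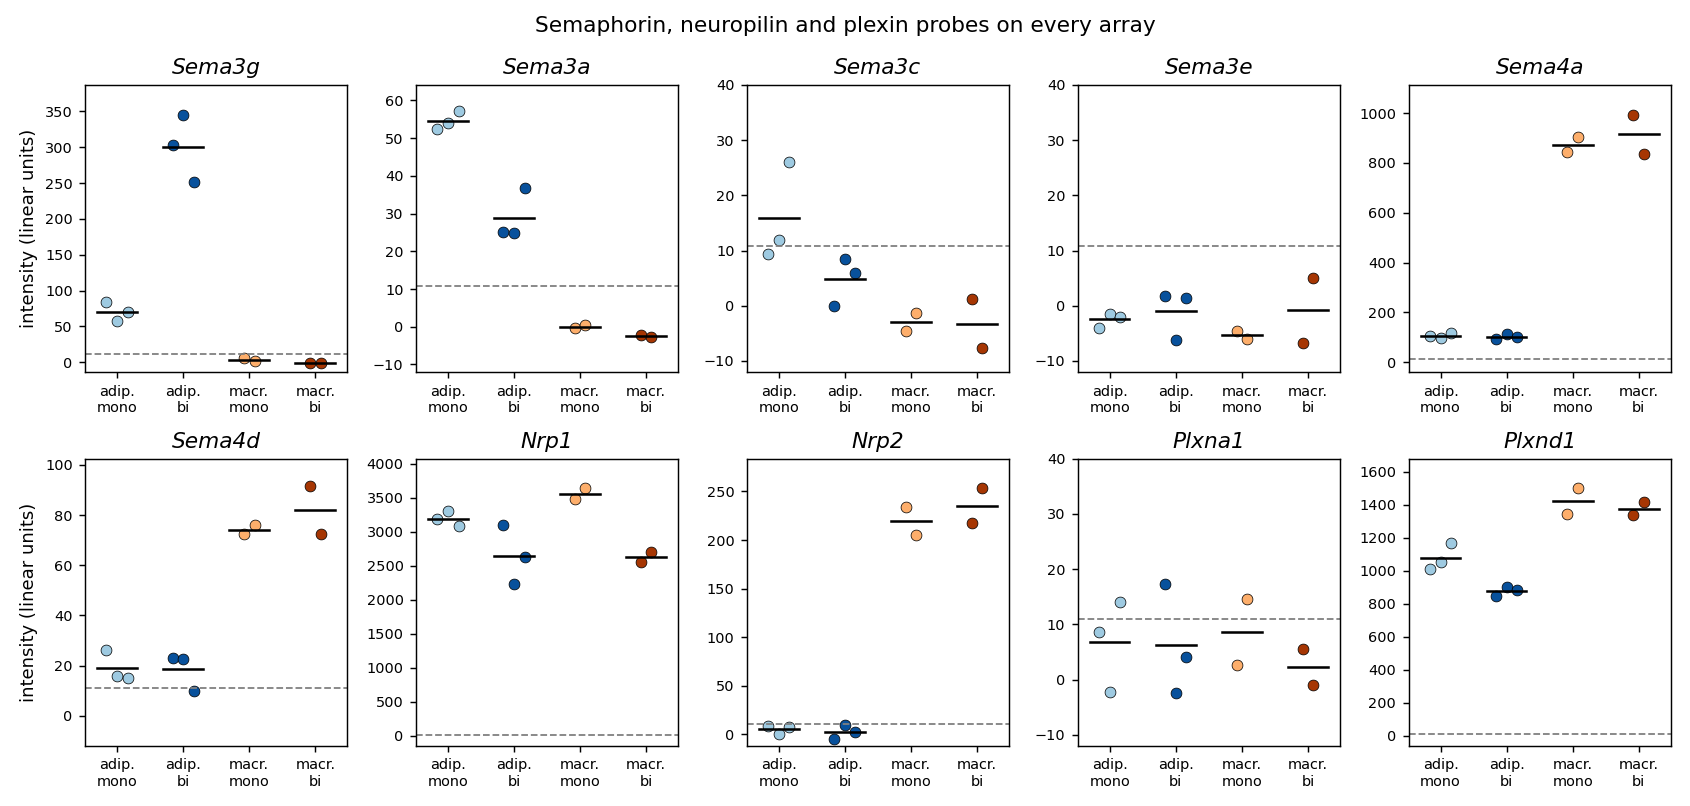
Intensity of 1 probe per gene (linear units, vertical axis, one scale per panel) on each of the 10 arrays, by line and culture. Points are arrays, bars are group means and the dashed line is the noise bound of 10.9 units. The 3 bilayer adipocyte arrays of Sema3g, at 251.6 to 345.5 units, sit above all other arrays, while those of Sema3a, at 24.7 to 36.8 units, sit below the monolayer adipocyte arrays.

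Nrp1, the co-receptor for Sema3a and for vascular endothelial growth factor, was bright in both lines. Its brightest probe read 3179, 3301 and 3088 units in monolayer adipocytes and 3090.4, 2232 and 2620.0 units in bilayer adipocytes. The groups met at their edges, since the highest bilayer array lay just above the lowest monolayer array. Macrophages read 3475 and 3635 units in monolayer and 2553 and 2701 units in bilayer on that probe, without overlap. The bilayer difference was -0.28 (SE 0.09) in adipocytes and -0.43 (SE 0.11) in macrophages.

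The other 2 Nrp1 probes gave the same direction, with different sizes. In macrophages the second bright probe read 2962 and 3465 units in monolayer and 1957 and 2388 units in bilayer, and the dim probe read 370.2 and 451.4 units in monolayer and 281.1 and 208.8 units in bilayer. All 3 Nrp1 probes thus had both bilayer macrophage arrays below both monolayer arrays, with log2 differences of -0.43, -0.56 (SE 0.14) and -0.72 (SE 0.29). In adipocytes the 2 further probes overlapped between cultures, with differences of -0.19 (SE 0.10) and -0.03 (SE 0.21). The difference between the 2 lines' bilayer responses, adipocytes minus macrophages, was 0.16 on the brightest probe (SE 0.14). It was 0.37 on the second bright probe (SE 0.17) and 0.68 on the dim probe (SE 0.36), and none of these passed the fit's threshold. The adipocyte difference of Nrp1 passed the fit's threshold, and still did without bilayer adipocyte array 1, where it was -0.40. It did not pass without any 1 of the other 9 arrays, and was -0.16 without bilayer adipocyte array 2.

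Nrp2, the other neuropilin, was read by 6 probes that did not give 1 picture. The probe that was brightest in macrophages read 233.9 and 205.0 units in monolayer and 217.3 and 253.4 units in bilayer, which overlap. The same probe was under the noise bound on all 6 adipocyte arrays, between -4.8 and 9.7 units, so monolayer adipocytes were at least 8.74-fold lower. Another probe was above noise on all 3 bilayer adipocyte arrays, at 35.5, 24.9 and 19.8 units, but on only 1 monolayer adipocyte array, at 8.4, 22.1 and 2.2 units. Its groups overlapped, and the fitted log2 difference of 0.72 (SE 0.26) rests largely on monolayer values at noise. In macrophages it read 47.4 and 53.5 units in monolayer and 69.4 and 52.0 units in bilayer. A further probe, above noise only in monolayer macrophages, read 13.5 and 42.9 units there and 10.8 and 7.8 units in bilayer macrophages. The remaining 3 Nrp2 probes exceeded the noise bound on at most 1 array.

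**Figure D2:**
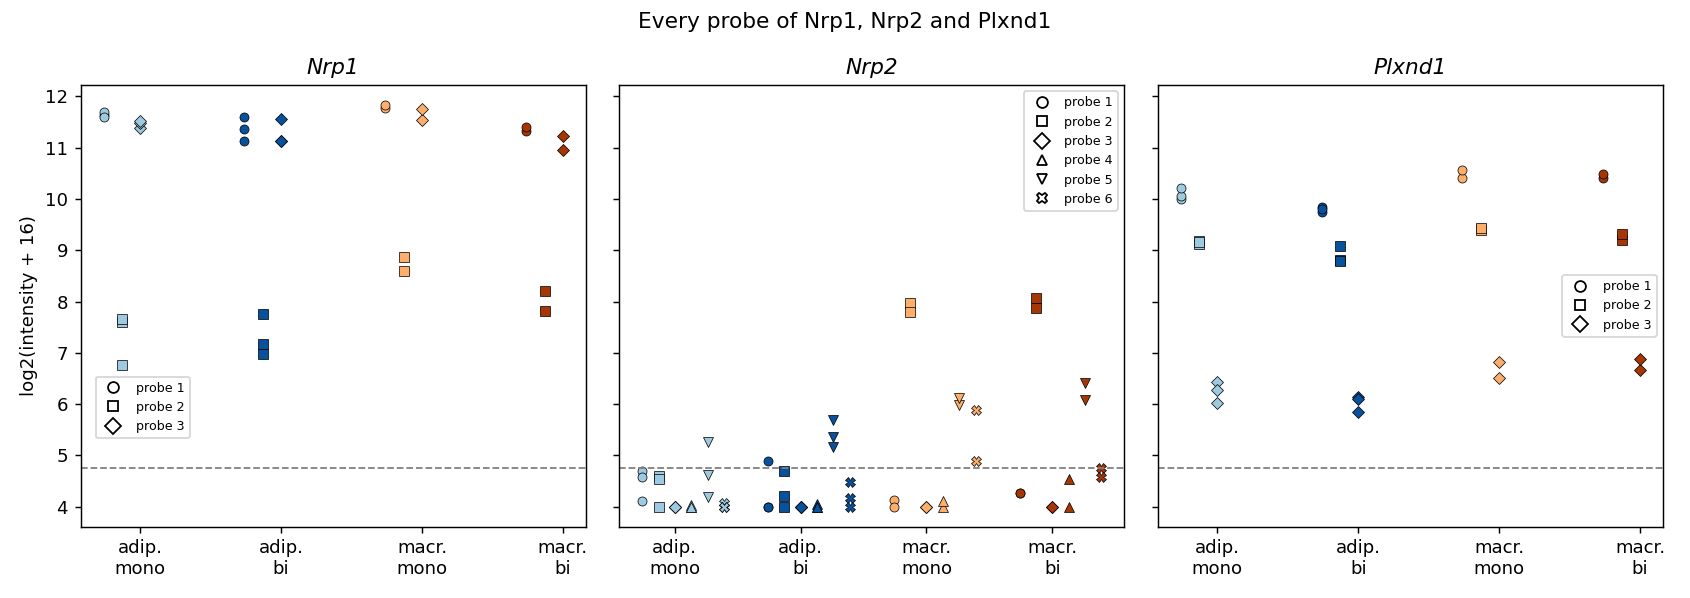
Every probe of Nrp1, Nrp2 and Plxnd1 on each array, as log2(intensity + 16) on the vertical axis, by line and culture. Marker shapes tell the probes of a gene apart and the dashed line is the noise bound. All 3 Nrp1 probes are lower in bilayer than in monolayer macrophages, while the 6 Nrp2 probes range from noise on every array to 253.4 intensity units in bilayer macrophages.

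Of the 2 plexins, which transmit the signal of the neuropilin complex, only Plxnd1 was clearly measured. Plxnd1, the receptor of Sema3e and a partner of neuropilins, read 1008, 1053 and 1171 units in monolayer adipocytes and 845.0, 900.8 and 882.9 units in bilayer adipocytes. Every bilayer array was below every monolayer array, and the log2 difference was -0.29 (SE 0.07). In macrophages the cultures overlapped on this probe, the brightest, at 1345 and 1499 units in monolayer and 1339 and 1414 units in bilayer. The difference there was -0.04 (SE 0.09). The adipocyte difference passed the fit's threshold, but not without monolayer array 3 (-0.23) or bilayer array 1 (-0.27). A second Plxnd1 probe read 540.2, 561.9 and 557.9 units in monolayer adipocytes and 523.7, 434.4 and 429.8 units in bilayer adipocytes, without overlap (log2 difference -0.26, SE 0.09). In macrophages the second probe read 655 and 677 units in monolayer and 575 and 618 units in bilayer, without overlap (-0.16, SE 0.10). The third Plxnd1 probe, the dimmest, differed by -0.22 in adipocytes (SE 0.17) and by 0.10 in macrophages (SE 0.21), with overlap in both. Plxna1, a receptor of class 3 semaphorins, had 1 probe that exceeded the noise bound on 3 of 10 arrays and reached at most 17.3 units. Its bilayer difference in adipocytes was -0.05 (SE 0.35).

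Across the members, 9 could be tested in adipocytes and 3 of them passed the threshold of an adjusted p of 0.05, Sema3g higher and Nrp1 and Plxnd1 lower in bilayer. Of all 11037 genes tested in adipocytes, 10.8% passed it, 5.63% higher and 5.17% lower in bilayer. In macrophages 0 of 5 tested members passed in limma's fit, against 0.668% of 10326 genes. The groups did not overlap for 4 of 9 members in adipocytes, where 28.7% of all genes did not, and for 1 of 5 in macrophages, where 43.6% did not. For Sema3g, Sema3a and Sema3c no difference between the lines' responses is given, since their probes were at noise on all 4 macrophage arrays. Nothing is read from these member counts, since the genes were chosen with these comparisons known. The median log2 difference of the tested members was -0.05 in adipocytes and 0.06 in macrophages, and that of all genes was -0.01 and 0.00.

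**Figure D3:**
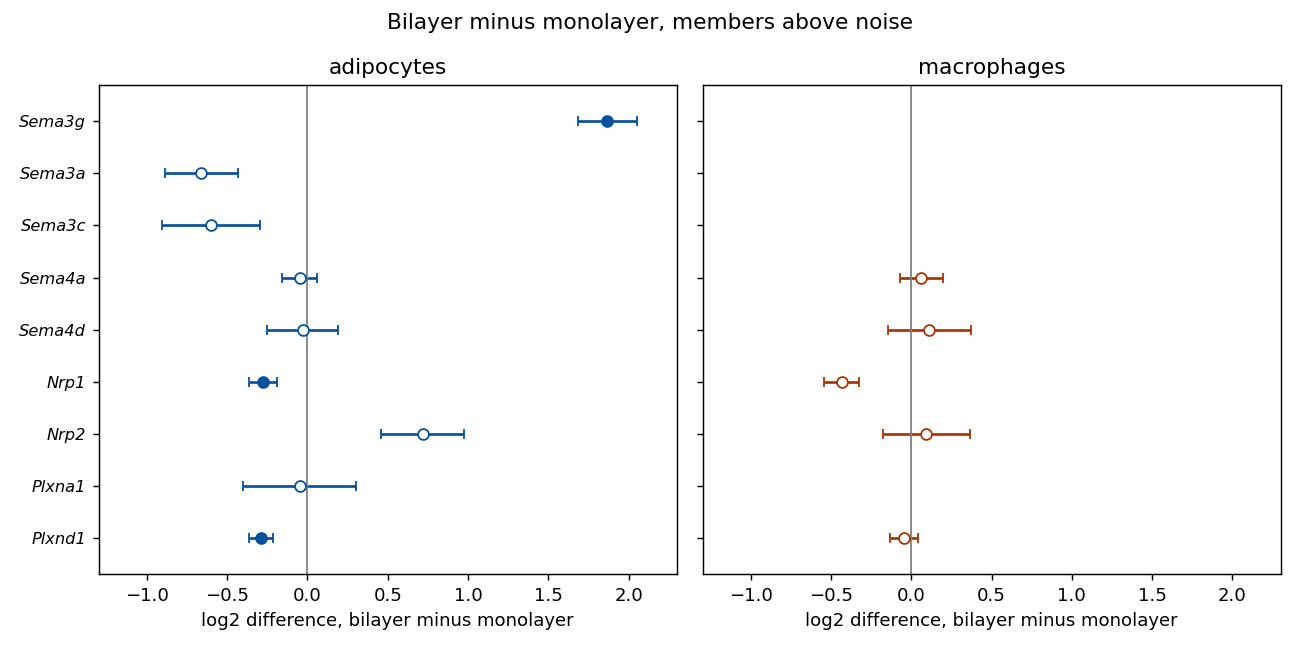
Bilayer minus monolayer on the log2(intensity + 16) scale (horizontal axis) for each member tested, in adipocytes at left and macrophages at right. Points are the fitted differences, bars are 1 SE on either side, and filled points passed an adjusted p of 0.05. Sema3g stands at 1.87 in adipocytes, and the other adipocyte differences lie between -0.66 and 0.72.

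Between the monolayers, the member ligands of the 2 classes lay on opposite sides, which did not hold for class 4 in the wider family, where Sema4b and Sema4g were higher in adipocytes. Sema3g, Sema3a and Sema3c were above noise only in adipocytes, whereas Sema4a and Sema4d were higher in macrophages. Among the receptors, Nrp1 was bright in both lines, Plxnd1 was 1.32-fold lower in adipocytes (log2 difference -0.40, SE 0.08), Nrp2 was at noise in adipocytes on its brightest probe, and Plxna1 was near noise in both lines. Nrp1 differed by -0.16 (SE 0.10) on its brightest probe and by -1.40 (SE 0.26) on its dimmest. In all, 7 of 9 members passed the threshold between the lines, 3 higher and 4 lower in adipocytes, where 65.8% of all genes did, 33% higher and 32.8% lower. The arrays of the lines did not overlap for 8 of 9 members and for 75.3% of all genes.

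The wider family was then examined, namely 20 further semaphorin and plexin genes found on the array and listed by name. In adipocytes 12 of them were tested and 1 changed with the bilayer, against 10.8% of all genes, with a median log2 difference of 0.14 beside -0.01 over all genes. That gene was Sema4g, a class 4 membrane semaphorin, which read 24.4, 34.2 and 37.1 units in monolayer and 88.1, 105.0 and 88.3 units in bilayer. The groups were far apart, and Sema4g rose by 1.20 on the log2 scale (SE 0.23, limma adjusted p = 0.00245). A second Sema4g probe was under the noise bound on all monolayer adipocyte arrays and above it on 1 of the bilayer arrays, at 11.7 units. With an offset of 4 in place of 16 before the logarithm, the Sema4g call was lost (adjusted p = 0.0579).

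The other 11 family genes tested in adipocytes did not pass. Sema7a, a lipid-anchored semaphorin that binds integrins and plexin C1, read 15.9, 1.6 and 28.4 units in monolayer and 52.3, 32.9 and 38.0 units in bilayer. Its arrays did not overlap and its difference was 0.95 (SE 0.31, adjusted p = 0.0607). Its receptor Plxnc1 read 17.8, 15.8 and 18.8 units in monolayer and 8.5, 5.7 and 7.6 units in bilayer on 1 probe, which bounds the difference at 1.24-fold or more (adjusted p = 0.126), and was at noise on the other.

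In macrophages 9 of the 20 were tested and 0 passed in limma's fit, where 0.668% of all genes passed. Plxnb2, a receptor of class 4 semaphorins, read 1380.9 and 1499.9 units in monolayer macrophages and 1085 and 1132 units in bilayer macrophages. Its macrophage arrays did not overlap, and the difference was -0.37 (SE 0.09, adjusted p = 0.092). In adipocytes Plxnb2 read 263.7, 285.4 and 292.5 units in monolayer and 306.8, 297.8 and 307.7 units in bilayer, a difference of 0.11 (SE 0.08). The 2 responses of Plxnb2 differed from each other by 0.48 (SE 0.12, limma adjusted p = 0.0408), in a test that 2.56% of 12324 genes passed. The Plxnb2 call was lost when any 1 of the 10 arrays was left out (adjusted p up to 0.18, difference 0.42 to 0.54). For Sema4g no such difference is given, since its brighter probe was under the noise bound on all 4 macrophage arrays. Its second probe read 25.2 and 1.3 units in monolayer macrophages and 6.1 and 37.0 units in bilayer macrophages, which overlap.

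**Figure D4:**
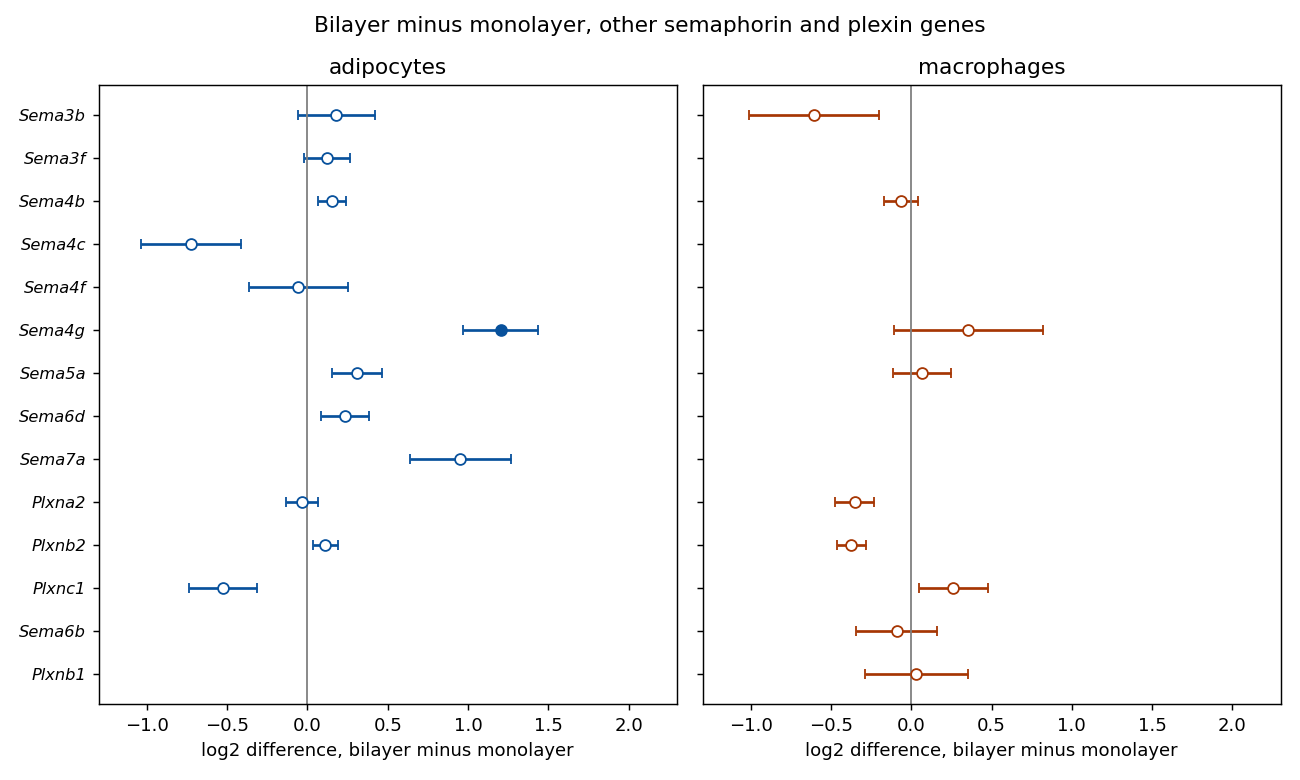
Bilayer minus monolayer on the log2(intensity + 16) scale (horizontal axis) for the other semaphorin and plexin genes tested, in adipocytes at left and macrophages at right. Points are fitted differences, bars are 1 SE on either side, and a filled point passed an adjusted p of 0.05. Sema4g at 1.20 in adipocytes is the 1 filled point, and Plxnb2 lies at 0.11 in adipocytes and -0.37 in macrophages.

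Between the monolayers 10 of 15 further family genes passed, against 65.8% of all genes, 6 higher and 4 lower in adipocytes. Sema3f, a class 3 ligand of Nrp2, was at least 10.7-fold higher in adipocytes, with 272 ± 13.5 units (SD, n = 3) against noise in macrophages on its brightest probe. Sema6d, a transmembrane ligand of plexin A1, was at least 9.18-fold higher and Sema4b 8.89-fold higher. Sema6b, a transmembrane semaphorin, was at least 9.51-fold lower in adipocytes, at noise in monolayer and at 241 ± 33.5 units (SD, n = 2) in macrophages. Plxnc1 was at least 6.04-fold lower and Plxnb2 4.91-fold lower. Adjusted p from limma for these 6 genes lay between 3.29e-13 and 2.03e-09.

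A list of 52 genes that process, share or transmit semaphorin signals was examined last, with 40 tested in adipocytes and 29 in macrophages. In adipocytes 3 rose and 1 fell, a share near the 10.8% of all genes. Limk1, the kinase that phosphorylates cofilin and so slows actin turnover, read 606.9, 656.2 and 792.8 units in monolayer and 1395, 1334 and 1393 units in bilayer. The groups were far apart and Limk1 rose by 1.00 (SE 0.10, limma adjusted p = 1.78e-06). In macrophages it read 136.2 and 121.6 units in monolayer and 136.3 and 135.5 units in bilayer, and the responses of the 2 lines differed by 0.93 (SE 0.15, adjusted p = 0.00538), a call lost without a filter on dim probes or without the intensity trend (adjusted p up to 0.0608).

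Vegfa, a growth factor that competes with Sema3a for Nrp1, read 3893, 3863 and 3618 units in monolayer adipocytes and 6473, 5473 and 4950.1 units in bilayer adipocytes. All 3 bilayer arrays were above the monolayer arrays, and Vegfa rose by 0.56 (SE 0.10, limma adjusted p = 0.00108). In macrophages Vegfa was at noise on all 4 arrays, so monolayer adipocytes were at least 141-fold higher. Vegfd and Vegfc, ligands of Nrp2 among other receptors, were at least 41.2-fold and 20.2-fold higher in adipocytes. Gipc1, an adaptor that binds the tail of neuropilin 1, fell by 0.37 (SE 0.11, adjusted p = 0.0289) from 318 ± 37.2 to 241 ± 27.9 units (SD, n = 3). That call was lost without monolayer array 1 or 3 or bilayer array 3, and with the 4 Gipc1 probes averaged it was -0.20 (adjusted p = 0.203). The Vegfa call was lost with an offset of 4 (adjusted p = 0.0545).

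Rras, a small GTPase that plexins switch off, rose in both lines. In macrophages Rras read 624.2 and 621.1 units in monolayer and 1013 and 969.9 units in bilayer, a rise of 0.66 (SE 0.08, limma adjusted p = 0.0016). Without bilayer macrophage array 1 the rise was 0.63 (adjusted p = 0.0528). In adipocytes it rose by 0.24 (SE 0.07, adjusted p = 0.0283), a call lost without monolayer array 1 or 2 or bilayer array 2 or 3 (0.18 to 0.25). Dpysl2, a mediator of the Sema3a signal to microtubules, read 2899.7 and 2428.8 units in monolayer macrophages and 3582 and 3653 units in bilayer macrophages (rise of 0.44, SE 0.09, adjusted p = 0.0414). Its sign turned to -0.10 when the Dpysl2 probes above noise were averaged, and 12 of the other 18 alternatives lost the call (adjusted p up to 0.382). These 2 genes were all that passed among 29 in macrophages, where 0.668% of all genes passed. Between the monolayers 33 of 44 passed, where 65.8% of all genes did. The tyrosine kinase Fes, which binds plexin A1, was at least 56.4-fold lower in adipocytes, Cd72, a receptor of Sema4d, was at least 43.6-fold lower, and the adhesion molecule Nrcam was 11.2-fold lower.

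Over the 10 arrays, the 5 genes whose log2 profile lay closest to that of Sema3g were Tmem82, Ak4, C4b, Slc25a34 and Cfb. Likeness was the root mean square of the difference between the centred profiles, which was 0.265 for Tmem82, 0.271 for Ak4, 0.343 for C4b, 0.370 for Slc25a34 and 0.373 for Cfb among 12323 genes compared. The profile of Sema3g itself had a root mean square of 1.75. All 6 share the same 10 arrays and were highest in bilayer adipocytes, which follows from how the 5 were chosen. There Tmem82 averaged 349 units against 80.6 in monolayer and Ak4 312 units against 75.5. On every macrophage array Sema3g was at noise, and Tmem82 and Ak4 lay at the floor after negative values were set to 0. Cfb averaged -0.8 units in monolayer macrophages and -5.1 units in bilayer macrophages. For these genes that part of the likeness is thus between values at noise. C4b averaged 35.2 and 31.4 units there, above noise unlike Sema3g, so its likeness is in centred shape and not in level. C4b and Cfb encode complement components, and Ak4 encodes a mitochondrial adenylate kinase.

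**Figure D5:**
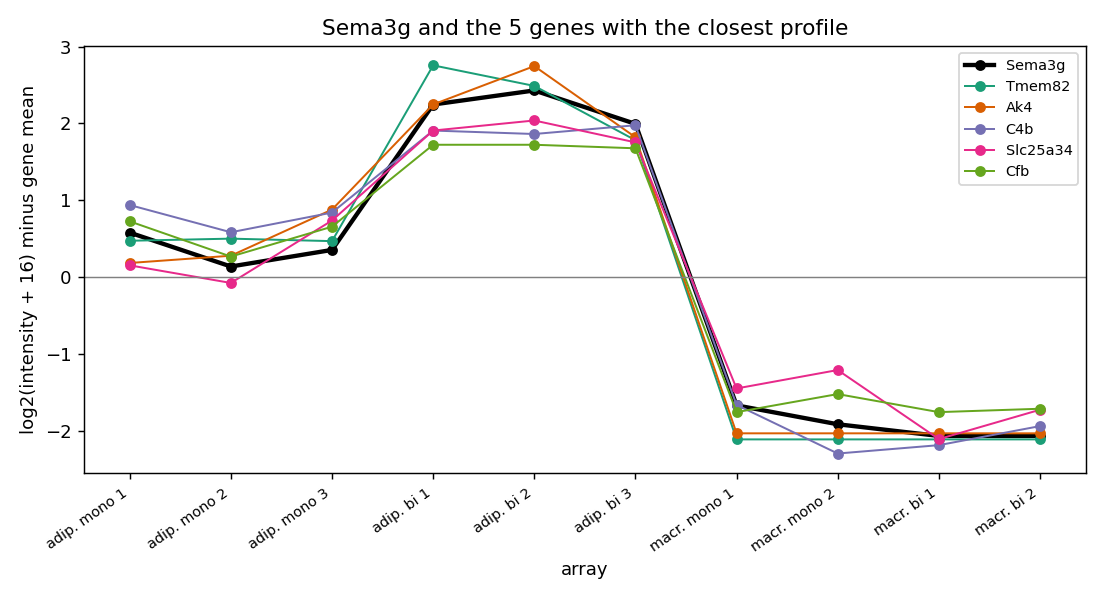
log2(intensity + 16) minus the gene's own mean (vertical axis) on the 10 arrays (horizontal axis) for Sema3g, in black, and the 5 genes closest to it in profile. All 6 lines are at their highest on the 3 bilayer adipocyte arrays, since the 5 genes were chosen for closeness to Sema3g. Their root mean square distances from Sema3g run from 0.265 to 0.373.

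The arrays matched their labels. All 10 adipocyte markers were above noise on every adipocyte array, with a summed intensity of 73153 to 77967 units in monolayer and 69263 to 76586 units in bilayer. On macrophage arrays they summed to 4626.2 to 4636.5 units in monolayer and 3447 to 4095.8 units in bilayer, with Lpl alone at 3418 to 4572 units. Adipoq was near noise there, at 12.1 and 19.0 units in monolayer and 0.7 and 5.3 units in bilayer (log2 difference -0.73, SE 0.13, limma adjusted p = 0.0162). The sum of 9 macrophage markers was 21.5 to 42.7 units in monolayer adipocytes and 13.7 to 41.4 units in bilayer adipocytes, against 57046 to 60082 units in macrophages, where 8 of the 9 were above noise on every array and Fcer1g was not in monolayer. Every probe of Laptm5, Ptprc and Tyrobp was at noise on all 6 adipocyte arrays. Of 10 endothelial markers, 1, Cdh5, was above noise on every adipocyte array, with a log2 bilayer difference of -0.04 (SE 0.25). Tie1, Emcn, Esam, Cldn5, Erg and Sox18 were at noise on all adipocyte arrays. Pecam1 and Vwf were at noise on all monolayer but not all bilayer adipocyte arrays, and Tek the reverse. The 10 endothelial markers summed to 28.3 to 66.1 units in monolayer and 38.1 to 86.5 units in bilayer. The endothelial sums overlapped between the cultures. The 10 fibroblast and preadipocyte markers summed to 19341 to 19938 units in monolayer adipocytes and 19609 to 19904 units in bilayer adipocytes. In both cultures 9 of them were above noise on every array, so readings of these cultures cannot be assigned to mature adipocytes alone. Replicates of a group correlated at 0.988 to 0.991 over probes, and arrays of different lines at 0.838 to 0.844.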

How the data were processed

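Total RNA of 10 samples was hybridised as biotin-labelled cRNA to Illumina mouse bead arrays, per the labels. Linear probe intensities were taken as deposited, after the authors had subtracted background and normalized them by a method not given in the sources used here. Per the submitters' processing notes, GenomeStudio 2011.1 was among the tools, with no role given. A further 20 deposited value columns could not be tied to samples by name and were not used. Of 45281 probes, 34885 had 1 gene symbol in the platform annotation, 18 had several and 10378 had none, and 34807 matched a RefSeq gene table by their identifier.

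Values below 0 were set to 0 and log2(intensity + 16) was tested. A gene entered where its probe exceeded 10.9 units on at least 2 arrays of the line compared, or of all 10 for tests across lines, and was represented by its probe of highest mean. "At least" folds set the mean of the brighter group against the noise bound and do not allow for scatter among its arrays. With limma 3.58.1 under R 4.3.3, linear models were fitted over all 10 arrays and 4 groups (eBayes with an intensity trend), two-sided, with Benjamini-Hochberg adjustment over all genes tested and a threshold of 0.05. The spread is thus shared between lines, and the small number of arrays limits precision. The code was tested on simulated data.

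The members and all gene lists were chosen with earlier results of these data known. Genes named were all members, every further family gene or partner past the threshold in a bilayer comparison, the 3 with the largest difference in each direction between the lines, and the 5 closest to Sema3g. Plxnc1, Sema7a and the macrophage values of Plxnb2 were named after their values were seen. In adipocytes, arrays with the same replicate number deviated together only weakly, at correlations of 0.0471, 0.0223 and 0.0208. Pairs with different numbers lay between -0.0375 and 0.017. With 2 macrophage arrays per group the deviations mirror each other, so their correlations (-0.00357 and 0.00357) cannot show pairing. The numbers were not taken to pair samples in the main fit. Offsets, filters, the choice of probe, the variance prior, the arrays in the fit, quantile normalization, a replicate block and leaving out each array were tried as alternatives.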

Additional observations from a re-analysis of the deposited data

Results flagged for a closer look

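Limma's test of the difference between the responses covered 15 further family genes and 44 partners. Of these, 2 genes above noise in both lines passed it, where 2.56% of 12324 genes did. Sema4g passed too but is left out, since its brighter probe was at noise in macrophages. For Limk1 the adipocyte response exceeded the macrophage response by 0.93 on the log2 scale (SE 0.15, adjusted p = 0.00538), with 3 of 3 bilayer adipocyte arrays above every monolayer adipocyte array. For Plxnb2 the excess was 0.48 (SE 0.12, adjusted p = 0.0408), with both bilayer macrophage arrays below the monolayer arrays and the 3 bilayer adipocyte arrays above the monolayer adipocyte arrays. The Plxnb2 call was lost when any single array was left out, and that of Limk1 without the filter on dim probes or without the intensity trend. The groups of 2 or 3 arrays are too small for a test of single outlying arrays.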

How the results depend on the processing

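In adipocytes the count of members past the threshold was 3 and ranged from 1 to 3 when an array was left out, falling to 1 without monolayer array 3, and was 4 with an offset of 64 or only the arrays compared (Sema3a was added). Sema3g passed under 19 of 19 alternatives (1.43 to 2.03), Plxnd1 lost the call under 5 and Nrp1 under 13 of 19, both keeping their direction. Sema3a gained it under 5. The 1 further family gene became 0 with an offset of 4, 2 with an offset of 64, only the arrays compared or a replicate block (Sema7a was added) or no intensity trend (Plxnc1 was added), and 1 to 2 leaving out an array. The 4 partners became 2 without a filter on dim probes or without the trend, 6 with an offset of 64, 5 with only the arrays compared, and 2 to 4 leaving out an array. In macrophages 0 members became 1 (Nrp1) with probes averaged or only the arrays compared, and 0 to 1 leaving out an array. The 0 further family genes became 1 (Plxnb2) with only the arrays compared. The 2 partners became 1 with an offset of 4, no filter, averaged probes, no trend or a replicate block, 3 with an offset of 64 or only the arrays compared (Cd72 was added), and 0 to 2 leaving out an array, with 0 without bilayer macrophage array 1. Dpysl2 reversed to -0.10 with probes averaged. For the difference of the responses, the 2 further family genes (Plxnb2, and Sema4g, whose macrophage arrays were at noise) became 1 with an offset of 4, averaged probes or a replicate block, 0 without the filter or the trend, and 0 to 1 leaving out an array. Counts between the lines stayed within 6 to 8 members and 9 to 11 further family genes. Over all genes the counts were 1192 in adipocytes (603 to 1425), 69 in macrophages (9 to 155) and 316 for the difference (80 to 452). The causes of these shifts were not tested. In adipocytes each array deviated most like the array of its own number, but only weakly. Those correlations were 0.0208 to 0.0471, beside up to 0.017 for pairs with different numbers, and nothing is read from them. A slide block and a normexp correction of the non-normalized signals were not run, because those columns could not be tied to samples. Dim probes near 10.9 units limit what can be said of Sema3c, Plxna1, Nrp2 and Sema7a.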
